A study of Mus musculus with 6 samples.

Results

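Plasmacytoid dendritic cells (pDC) made up 93 of 39928 kept barcodes, 0.233%, in droplet single-cell RNA libraries of mouse pancreatic tumours. Kept barcodes held 500 or more UMIs (unique molecular identifiers, each counting 1 captured transcript) from 250 or more genes, with no more than 20% of them mitochondrial. A kept barcode was selected with at least 2 UMIs of Siglech, at least 2 UMIs summed over the 7 genes Ccr9, Klk1, Cox6a2, Smim5, Pacsin1, Ly6d and Tcf4, at most 2 UMIs summed over C1qa, C1qb and C1qc, and 0 UMIs of Cd3e. These 12 genes chose the cells, so their levels are a description and carry no test. All 6 donors were KPC mice (KrasLSL.G12D/+; p53LSL.R172H/+; Pdx1-Cretg/+), in which the Pdx1 promoter, active in the pancreatic lineage, drives the Cre recombinase that switches on both mutant alleles. Vehicle (corn oil and water) was given by mouth to 3 mice, and the other 3 received a combination by mouth: 1 mg/kg of trametinib, which blocks the kinase MEK, and 40 mg/kg of hydroxychloroquine, a weak base that makes endosomes and lysosomes less acidic. Mice entered with tumours of 4 to 7 mm on ultrasound and were assigned at random. Tumours were taken after 24 h and gave 1 library per mouse, and no ages are given in the labels.

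Plasmacytoid dendritic cells are round, secretory cells of the immune system that resemble plasma cells more than other dendritic cells. Their identity rests on the E protein Tcf4, and they sense RNA and DNA in endosomes through Tlr7 and Tlr9, which need an acidic compartment, and can answer with large amounts of type I interferon. In tumours they are usually rare, and they have been described both as sources of interferon and as cells that make little of it and tolerate the tumour.

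The libraries differed in depth between the groups. Kept barcodes had a median of 4662, 4444 and 3222 UMIs in vehicle 1, 2 and 3 and of 11335, 8482 and 9671 UMIs in treated 1, 2 and 3. Pairs of libraries shared between 0 and 22 of their barcode sequences. The labels treat each library as a separate mouse, so p-values measure the spread between mice. Vehicle 1 gave 2 selected barcodes and treated 1 gave 1, so values of these mice are shown but enter no gene test, unless stated.

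The selected cells were 2, 19 and 48 barcodes in vehicle 1, 2 and 3 and 1, 11 and 12 in treated 1, 2 and 3. They were split into 74 barcodes and 19 that also held much RNA of other cell types. A selected barcode was called mixed when it had more than 12000 UMIs (12 barcodes) or at least 20 UMIs of the marker list of another cell type (the other 7), a rule set after the data were seen. Among the mixed barcodes, 7 reached 20 UMIs for tumour epithelium, 5 for fibroblasts, 3 for macrophages and monocytes, 3 for neutrophils, 2 each for B cells and acinar cells, 1 for endothelium and 0 for T and NK cells, some for more than 1 list. Scrublet, a doublet caller, called 1 of the 93, but its highest scores (a fixed share of 0.8% per 1000 barcodes in each library) took in 9 of the 19 mixed and 1 of the 74 other barcodes. The 19 held 26.03% of selected UMIs in vehicle 2, 77.6% in vehicle 3, 79.1% in treated 2 and 18.5% in treated 3. Levels below are therefore from the 74 barcodes that were not mixed (2, 17 and 36 in vehicle 1, 2 and 3, and 1, 7 and 11 in treated 1, 2 and 3), and tests are given with and without the mixed ones.

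**Figure D1:**
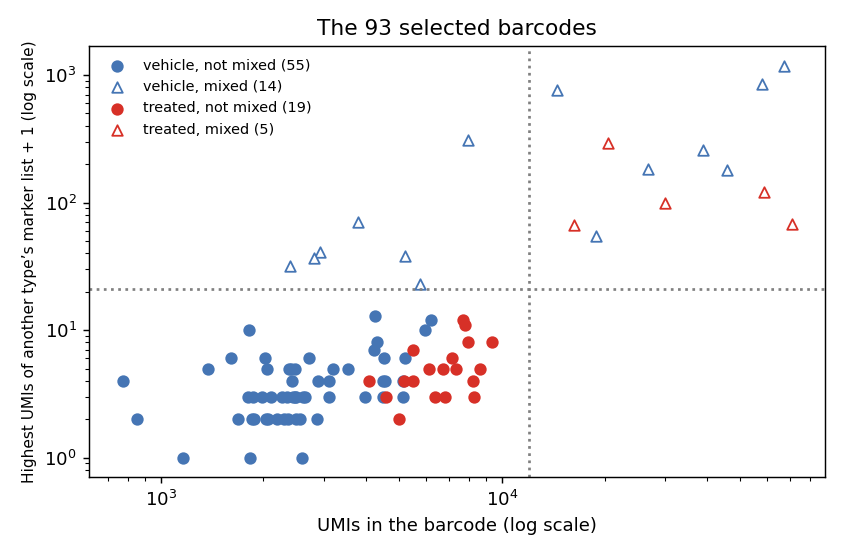
UMIs per selected barcode (x, log scale) against the highest UMI count reached by any of 8 marker lists of other cell types plus 1 (y, log scale), for the 93 barcodes. Circles are the 74 barcodes not mixed and triangles the 19 mixed, with dotted lines at 12000 UMIs and at 20 UMIs of a list, and vehicle in blue and treated in red.

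The 74 barcodes carried the pDC programme beyond the selecting genes, though unevenly. They ranged from 773 to 6190 UMIs in vehicle 2, from 849 to 3195 in vehicle 3, from 4081 to 8268 in treated 2 and from 4562 to 9374 in treated 3. Their median depth was 3260.5, 4467 and 2279 UMIs in vehicle 1, 2 and 3 and 8599, 7674 and 6715 UMIs in treated 1, 2 and 3, following the depth of the libraries. Of 22 pDC markers that the selection did not use, a median of 9, 15 and 10.5 were detected per barcode in vehicle 1, 2 and 3, and 16, 18 and 18 in treated 1, 2 and 3. All 22 had UMIs, and 73 of the 74 barcodes had at least 5 of them. Per 10000 UMIs of a barcode, they took 13.4 to 232 in vehicle 2 and 58.7 to 222 in vehicle 3. In treated 2 they took 117 to 162 and in treated 3 108 to 194. Low barcodes in vehicle 2 had 8 marker UMIs of 5952 and 9 of 5214. Of other cell types, some defining markers were at 0 and others were not. All 7 T and NK cell markers, Xcr1, Batf3 and Itgae of type 1 conventional dendritic cells (cDC1), Cx3cr1 and Axl of transitional dendritic cells, C1qa and Fcgr3 of macrophages, and Pax5 of B cells had 0 UMIs. Of these, Cd3e was set to 0 and C1qa limited by the selection. Leaving out mixed barcodes also capped the T and NK, macrophage and B cell lists, so low values there are partly built in. Cadm1, which is on the list of 6 cDC1 markers, had 71 UMIs. That list summed to 271 and 504 CPM in vehicle 2 and 3 and 588 and 153 CPM in treated 2 and 3, against 71.7 to 266 CPM in cDC of the 6 mice, where CPM are UMIs of the genes per 1000000 UMIs summed over the cells of a mouse. The class called cDC also held neutrophil markers, at 78756, 2088 and 11212 CPM in vehicle 1, 2 and 3. In treated 1, 2 and 3 they stood at 24482, 4937 and 6942 CPM, while its cDC2 list summed to 465 to 2070 CPM over the 6 mice. All values given for cDC are of this class and not of pure cDC. In the 74 barcodes the cDC2 list summed to 586 and 428 CPM in vehicle 2 and 3 and 546 and 556 CPM in treated 2 and 3, and the plasma cell list, which shares Xbp1 with the secretory genes, to 614 and 504 CPM in vehicle 2 and 3 and 357 and 904 CPM in treated 2 and 3. The macrophage and monocyte list had UMIs for 7 of 9 genes and summed to 371 and 315 CPM in vehicle 2 and 3 and 778 and 542 CPM in treated 2 and 3. Acinar markers reached 831 CPM in vehicle 3 and at most 63.1 CPM in the other mice. The 7 tumour markers summed to 153, 1014 and 289.6 CPM in vehicle 1, 2 and 3 and 0, 84.1 and 83.5 CPM in treated 1, 2 and 3. At the edge of the selection, 13 members had exactly 2 Siglech UMIs, 10 of them not mixed. Another 13 barcodes met every other condition with 1 Siglech UMI, 9 failed only by having 3 or more C1q UMIs and 1 only by Cd3e. Per 10000 UMIs, the 22 markers took a median of 104 in the 7 members of vehicle 3 with 2 Siglech UMIs and 78.2 in the 6 barcodes just outside with 1. In vehicle 2 they took 64.3 in 4 members and 2.12 in 3 barcodes just outside, which had a median of 28313 UMIs. In vehicle 1 they took 83.3 in 1 member and 10.7 in 1 barcode just outside. In treated 2 they took 10.3 in 1 mixed member, and in treated 3 they took 8.91 in 3 barcodes just outside.

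The share of kept barcodes that were pDC overlapped between the groups. It was 0.0915% (exact 95% binomial interval 0.0111% to 0.330%), 0.182% (0.110% to 0.285%) and 0.420% (0.310% to 0.557%) in vehicle 1, 2 and 3. It was 0.0243% (0.000616% to 0.135%), 0.203% (0.102% to 0.363%) and 0.188% (0.0971% to 0.328%) in treated 1, 2 and 3. Vehicle 3 was the highest and treated 1 the lowest, and the remaining 4 mice lay between. The intervals cover counting error only. The mean was 0.139% ± 0.0992 in treated and 0.231% ± 0.170 in vehicle mice (SD, n = 3), a difference of −0.0929 percentage points (two-sided exact permutation test, p = 0.6, where 3 against 3 mice cannot go below 0.1). Without vehicle 3 the difference was 0.00155 points (exact p = 1). Without the mixed barcodes the means were 0.109% ± 0.0761 and 0.190% ± 0.114 (exact p = 0.5). Because 2 UMIs are reached more easily in deeper cells, each barcode was also thinned to 2000 UMIs at random, with shallower ones left out. The means were then 0.143% ± 0.0992 and 0.228% ± 0.128 (exact p = 0.6). Among barcodes with at least 3 UMIs of immune genes the share was 0.377% ± 0.367 in treated and 0.447% ± 0.270 in vehicle mice (exact p = 0.8). Numbers in a dissociated tumour cannot tell a change in the tissue from a change in how many cells were recovered.

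**Figure D2:**
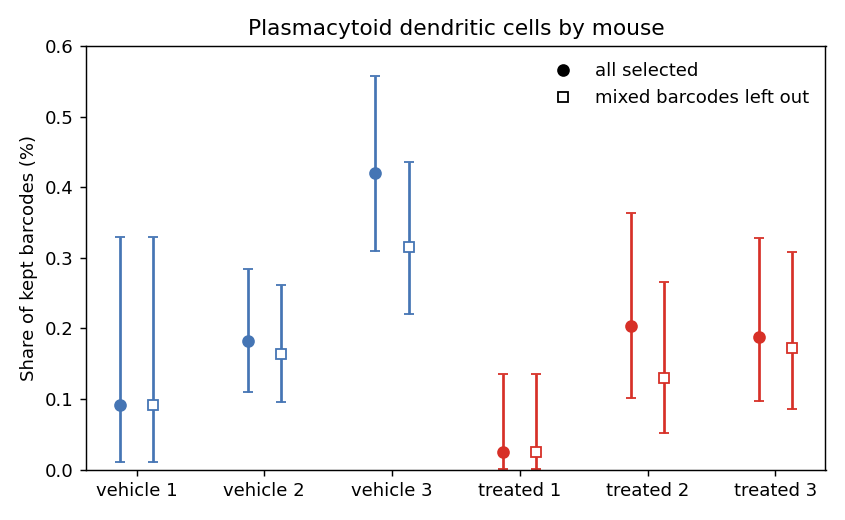
Share of kept barcodes selected as pDC (%, y) in each mouse, with exact 95% binomial intervals, for all selected barcodes (filled circles) and with mixed barcodes left out (open squares). Vehicle 3 is highest at 0.420%, treated 1 lowest at 0.0243%, and the 2 groups overlap.

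The genes that set these cells apart were, by ratio of the mean CPM over 6 mice to that in all other kept barcodes (10 CPM added to both), Siglech at 203, Cd209d at 124, Rnase6 at 73.7, Cox6a2 at 66.7 and Irf8 at 44.7. Cd7, Bcl11a, Ly6c2, Upb1, St8sia4, Ptprcap, Il7r, Ppfia4, Pacsin1, Klrd1, Klk1, Spib, Lair1, Bst2, Sh3bgr, Kmo, Iglc3, Ccr9 and Cd8b1 were also among the leading 25, with ratios from 40.1 down to 19.2. Of the 25, 5 were used by the selection and 9 belong to the 22 independent markers. With mixed barcodes included, 23 of the 25 were the same genes. Each mouse weighed the same in these means, also vehicle 1 with 2 barcodes and treated 1 with 1. Since the cells were chosen from these same counts, the ranking is a description and no test.

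Promoter sequences of the leading genes were read because Tcf4 belongs to the E proteins, which bind E-boxes such as CAGGTG and CAGCTG, and Spib to the ETS family, which binds cores such as GAGGAA. RefSeq windows of the 250 bases before a start site (GRCm38.p6) were at hand for 17 of the 25 genes. On either strand, CAGGTG or CAGCTG was found in at least 1 window of 7 of the 17, against 30.6% of 27025 genes with such a window. GAGGAA was found in 8 of the 17, against 25.9% of all genes. Windows of Siglech (chr7:55767934-55768183, plus strand), Ccr9 (chr9:123766961-123767210, plus strand), Kmo (chr1:175631943-175632192, plus strand) and Upb1 (chr10:75406661-75406910, plus strand) are printed as examples that hold a match, from genes almost silent outside pDC. Pacsin1 and Spib were quieter than Ccr9 in all other kept barcodes (mean of 0.472 and 1.16 against 1.75 CPM), and their windows held no match. Capitals mark the matches, an E-box on one strand or the other for Siglech (first base at −20 from the start site) and Ccr9 (−85), and GAGGAA for Kmo (−103) and Upb1 (−151). A match is only a stretch of letters and is no evidence of binding.
Siglech: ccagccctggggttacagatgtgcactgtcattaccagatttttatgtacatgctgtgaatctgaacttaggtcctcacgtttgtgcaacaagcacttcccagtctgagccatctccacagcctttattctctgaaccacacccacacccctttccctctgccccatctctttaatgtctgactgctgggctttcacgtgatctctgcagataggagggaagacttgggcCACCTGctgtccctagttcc
Ccr9: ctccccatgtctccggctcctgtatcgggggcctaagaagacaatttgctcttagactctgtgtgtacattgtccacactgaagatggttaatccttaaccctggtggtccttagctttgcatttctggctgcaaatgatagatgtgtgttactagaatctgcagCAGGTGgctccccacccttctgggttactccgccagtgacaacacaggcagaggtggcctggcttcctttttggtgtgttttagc
Kmo: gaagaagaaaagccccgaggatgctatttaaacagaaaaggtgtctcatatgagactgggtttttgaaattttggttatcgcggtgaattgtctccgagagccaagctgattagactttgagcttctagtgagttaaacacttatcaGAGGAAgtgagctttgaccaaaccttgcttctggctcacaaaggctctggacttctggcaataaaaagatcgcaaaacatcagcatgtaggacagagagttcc
Upb1: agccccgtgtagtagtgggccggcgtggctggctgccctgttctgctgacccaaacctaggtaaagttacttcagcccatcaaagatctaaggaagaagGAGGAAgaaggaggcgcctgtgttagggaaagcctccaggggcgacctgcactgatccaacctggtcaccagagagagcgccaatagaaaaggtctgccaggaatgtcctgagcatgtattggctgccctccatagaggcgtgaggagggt

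Those 4 genes were detected in every mouse with over 2 barcodes. Siglech, a surface lectin that signals through Tyrobp (ENSMUSG00000051504, chromosome 7, 55768178 to 55778925), stood at 1994, 1643 and 2455 CPM in vehicle 1, 2 and 3 and 1279, 2375 and 2671 CPM in treated 1, 2 and 3, against at most 1.81 CPM in macrophages. Levels in treated 2 and vehicle 3 lay side by side, and vehicle 2 was the lowest of the mice with over 2 barcodes. The chemokine receptor Ccr9, which guides cells to the gut and thymus (ENSMUSG00000029530, chromosome 9, 123678439 to 123784330), stood at 307, 271 and 416 CPM in vehicle 1, 2 and 3 and 0, 105 and 209 CPM in treated 1, 2 and 3, and 39 of the 74 barcodes had a UMI of it. Both selecting genes are given without a test. Kmo, an enzyme of tryptophan breakdown (ENSMUSG00000039783, chromosome 1, 175620381 to 175662116), stood at 0, 300.02 and 201 CPM in vehicle 1, 2 and 3 and 233, 210.2 and 376 CPM in treated 1, 2 and 3, and at 1.36 to 6.54 CPM in macrophages. Upb1, an enzyme of pyrimidine breakdown (ENSMUSG00000033427, chromosome 10, 75401115 to 75441679), stood at 0, 171 and 227 CPM in vehicle 1, 2 and 3 and 581, 715 and 362 CPM in treated 1, 2 and 3, and at 0 to 0.781 CPM in macrophages. Upb1 was higher in both treated mice with over 2 pDC than in both such vehicle mice, while Kmo overlapped.

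The transcription factors of the lineage were present in the combination known for pDC. Irf8, which dendritic cells need to develop, stood at 1227, 2743 and 1901 CPM in vehicle 1, 2 and 3 and 1047, 2269.8 and 2768 CPM in treated 1, 2 and 3, against 109 to 212 CPM in macrophages, 2.31 to 225 CPM in conventional dendritic cells (cDC) and 49.3 to 214 CPM in B cells. Tcf4, part of the selection, stood at 1714 and 1738 CPM in vehicle and 1450.2 and 2267 CPM in treated mice. In the same order vehicle 2, vehicle 3, treated 2 and treated 3, Spib, an ETS factor shared with B cells, stood at 229, 189, 294 and 501 CPM. The Runt factor Runx2 stood at 671, 655, 420.3 and 709 CPM and the zinc finger factor Bcl11a at 600.03, 541, 315 and 598 CPM. Macrophages held 0.138 to 0.795, 11.2 to 19.2 and 1.02 to 6.25 CPM of these 3. Id2, an inhibitor of E proteins that marks cDC, was the opposite: it had 6 UMIs in all 74 barcodes, or 14.3 and 12.6 CPM in vehicle 2 and vehicle 3 and 42.0 and 27.8 CPM in treated 2 and treated 3, against 90.3 to 239.8 CPM in cDC. Irf7, which amplifies the interferon response, had 25 UMIs (100.01 and 63.0 CPM in vehicle and 126 and 97.4 CPM in treated mice). Of the 16 factors listed, 15 had UMIs, and together they summed to 6229 and 5226 CPM in vehicle 2 and 3 and 5170.1 and 6983 CPM in treated 2 and 3.

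Surface and enzyme markers outside the selection separated the cells as clearly at equal depth. With barcodes thinned to 2000 UMIs, Bst2, a tethering protein of viruses and the target of the antibody used to recognise mouse pDC, had a UMI in 98.4% of 61 pDC and 18.0% of 6451 macrophages. The same shares were 78.7% and 0.248% for the lectin Cd209d, 82.0% and 1.01% for Ly6c2, 85.2% and 2.96% for the secreted ribonuclease Rnase6, and 60.7% and 0.0620% for Cd7. They were 68.9% and 1.64% for the sodium pump subunit Atp1b1, 63.9% and 3.19% for Runx2, and 44.3% and 0.0465% for Spib. Free RNA in droplets gives some UMIs in any cell, and the share in macrophages serves as that background for genes they lack. Among the markers not yet named, the receptor Klra17 stood at 129 and 126 CPM in vehicle and 126 and 153 CPM in treated mice, Rpgrip1 at 42.9 and 75.5 CPM in vehicle and 126 and 139 CPM in treated mice, Havcr1 at 71.4 and 139 CPM in vehicle and 63.1 and 83.5 CPM in treated mice and the adaptor Blnk at 171 and 214 CPM in vehicle and 525 and 223 CPM in treated mice. Ptprs, a phosphatase receptor that restrains pDC, stood at 271 and 302 CPM in vehicle and 231 and 431 CPM in treated mice, and Mctp2 at 186 and 214 CPM in vehicle and 399 and 334 CPM in treated mice. The 22 markers summed to 12572 and 12352 CPM in vehicle 2 and 3 and 13429.7 and 14703 CPM in treated 2 and 3, and to 569 to 1044 CPM in macrophages of the 6 mice.

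**Figure D3:**
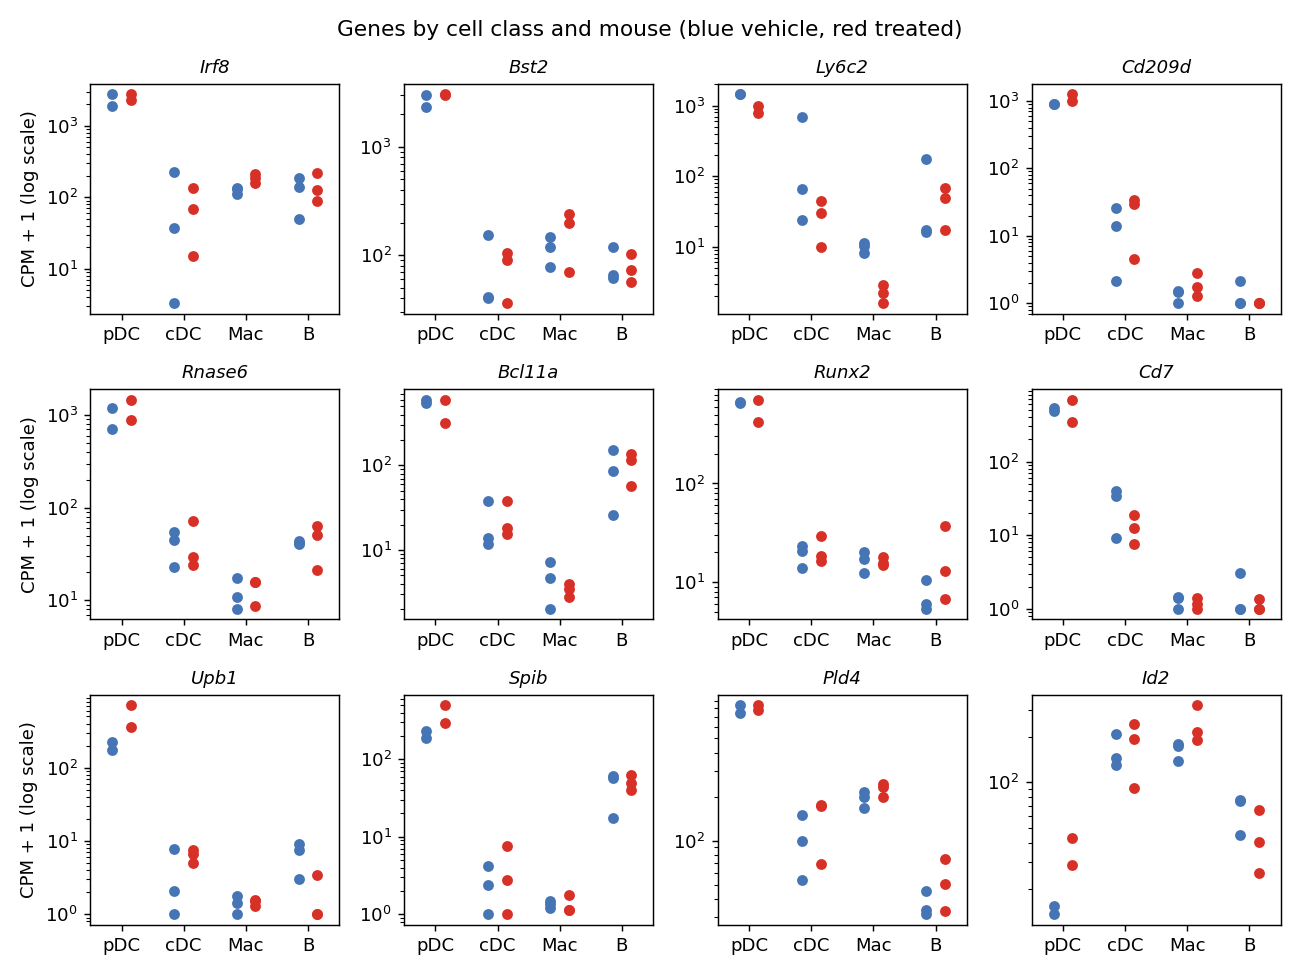
CPM plus 1 (log scale, y) of 12 genes in pDC not mixed, conventional dendritic cells (cDC), macrophages (Mac) and B cells, 1 point per mouse, vehicle blue and treated red. For pDC the 4 mice with at least 5 such barcodes are drawn, and pDC lie above the other classes for 11 genes and below cDC and macrophages for Id2. The cDC class also held neutrophil markers.

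Genes usually studied in lymphocytes were part of this profile. Cd7 stood at 0, 486 and 529 CPM in vehicle 1, 2 and 3 and 465, 694 and 348 CPM in treated 1, 2 and 3 and the interleukin-7 receptor chain Il7r at 153, 643 and 969.6 CPM in vehicle 1, 2 and 3 and 465, 673 and 654 CPM in treated 1, 2 and 3, with the groups overlapping for both. Klrd1, a receptor chain of natural killer cells, stood at 129 and 176 CPM in vehicle and 147 and 250.4 CPM in treated mice, and the coreceptor chain Cd8b1 at 300.02 and 164 CPM in vehicle and 168 and 55.6 CPM in treated mice. Cd8a had 18 UMIs and Cd4 had 24, while Cd3d, Cd3g, Trac and Trbc2, which define T cells, had 0. Iglc3, a light chain constant gene of B cells, stood at 200.01 and 315 CPM in vehicle and 652 and 139 CPM in treated mice while the B cell factor Pax5 had 0 UMIs. B cells themselves held 176 to 1858 CPM of it, and its near-identical copies can share reads, so this level is uncertain.

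The machinery of nucleic acid sensing was present, but the receptors themselves were near the limit of detection. Tlr7, which senses single-stranded RNA, had 22 UMIs in the 74 barcodes, or 85.7 and 37.8 CPM in vehicle and 126 and 83.5 CPM in treated mice. Tlr9, the DNA sensor, had 2, both in vehicle 3. Unc93b1, which carries these receptors to the endosome, stood at 307, 386 and 416 CPM in vehicle 1, 2 and 3 and 116, 757 and 542 CPM in treated 1, 2 and 3, and both treated mice with over 2 pDC lay above both such vehicle mice. Pld4, an endosomal exonuclease that trims the nucleic acids they sense, stood at 843 and 743 CPM in vehicle and 841 and 779 CPM in treated mice, against 167 to 245 CPM in macrophages. The protease Ctsb and the chaperone Hsp90b1, the members with the most UMIs, stood at 886 and 1435 CPM in vehicle and 1156 and 1474 CPM in treated mice and at 1186 and 1196 CPM in vehicle and 1240.0 and 1349 CPM in treated mice. Of 26 listed sensing genes in the files, 24 had UMIs in the 74 barcodes, and they summed to 5515 and 6497 CPM in vehicle 2 and 3 and 6872 and 6802 CPM in treated 2 and 3. Macrophages held 4787 to 8467 CPM of the list, so its sum did not set pDC apart from them.

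No interferon message was found. None of 15 type I and type III interferon genes had a UMI in any of the 93 barcodes, which allows a share of up to 3.23% of barcodes with a UMI. That limit pools all mice and counts each barcode as independent. Of the 93, 48 came from vehicle 3, so it is no limit for either group. Response genes were carried by Bst2 and by Ifi27l2a, at 714 and 604 CPM in vehicle 2 and vehicle 3 and 504 and 306 CPM in treated 2 and treated 3. Ifit1 and Ifit3, early targets of type I interferon, had 0 UMIs in the 74 barcodes, and Isg15 had 8. In cDC the same 3 genes stood at 0 to 44.0, 0 to 24.2 and 3.47 to 123 CPM across mice. The chemokine Ccl4, which attracts monocytes and T cells, was the secreted signal with the most UMIs, 535 in all. It stood at 0, 843 and 2418 CPM in vehicle 1, 2 and 3 and 465, 2165 and 2462 CPM in treated 1, 2 and 3, and was lowest in vehicle 2 among the mice with over 2 pDC. Thinned to 2000 UMIs, 33.3% and 76.0% of pDC in vehicle 2 and 3 and 57.1% and 63.6% in treated 2 and 3 had a UMI of it, against 38.9% of macrophages. Its relative Ccl3 was uneven, at 28.6 and 403 CPM in vehicle and 21.02 and 236 CPM in treated mice. Tgfb1 stood at 214 and 164 CPM in vehicle and 189 and 195 CPM in treated mice, Tnf had 2 UMIs, and Il12b and Gzmb had 0.

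Inhibitory and homing receptors were well represented. Tyrobp, the adaptor through which Siglech signals, stood at 3514 and 6031 CPM in vehicle and 4792 and 3283 CPM in treated mice. Lair1, an inhibitory receptor for collagen, stood at 307, 443 and 416 CPM in vehicle 1, 2 and 3 and 0, 904 and 807 CPM in treated 1, 2 and 3, with treated 2 and 3 above vehicle 2 and 3. Lag3, another inhibitory receptor, stood at 157 and 151 CPM in vehicle and 105 and 167 CPM in treated mice. Ccr2, the receptor for Ccl2 that brings cells from blood into tissue, stood at 460.1, 343 and 327 CPM in vehicle 1, 2 and 3 and 698, 862 and 695 CPM in treated 1, 2 and 3. It too was higher in treated 2 and 3 than in vehicle 2 and 3. Cxcr3 had 21 UMIs, Cxcr4 had 17 and Ccr7, which guides mature dendritic cells to lymph nodes, had 1.

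Antigen presentation genes had many UMIs and costimulation genes few, with both lists overlapping other classes in level. Cd74, the invariant chain of MHC class II, stood at 8515 and 4520.4 CPM in vehicle 2 and vehicle 3 and 5927 and 5661 CPM in treated 2 and treated 3, and H2-Aa at 3657 and 1473 CPM in vehicle and 1955 and 2559 CPM in treated mice. Vehicle 2 was the highest of these 4 mice for both. The 11 class II genes summed to 18044 and 9192 CPM in vehicle 2 and 3 and 12232 and 12616 CPM in treated 2 and 3. In macrophages they summed to 16079 to 28764 CPM and in B cells to 6945 to 12184 CPM. H2-D1 and B2m of class I stood at 2372 and 1838 CPM in vehicle and 1828 and 2198 CPM in treated mice and at 1543 and 1347 CPM in vehicle and 1807 and 1516 CPM in treated mice. Of 12 costimulation and checkpoint genes, 7 had UMIs, led by Cd200r1 with 25 and Icosl with 6. The 12 summed to 286 and 75.5 CPM in vehicle 2 and 3 and 126 and 97.4 CPM in treated 2 and 3. Macrophages held 129 to 339 CPM of them and B cells 32.9 to 198 CPM. Cd86 had 5 UMIs and Cd274, which encodes PD-L1, had 2.

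The secretory pathway, for which pDC are known, summed over 35 genes to 8643 and 8462 CPM in vehicle 2 and 3 and 9815 and 9334 CPM in treated 2 and 3, and to 4729 to 6561 CPM in macrophages. Sec61b, a part of the channel into the endoplasmic reticulum, stood at 857 and 818 CPM in vehicle and 1072 and 668 CPM in treated mice, and Xbp1, a factor of that compartment, at 329 and 353 CPM in vehicle and 273 and 598 CPM in treated mice. Lysosomal genes were led by Psap and Grn, precursors of lysosomal proteins, at 3143 and 3425 CPM in vehicle and 3509.8 and 3811 CPM in treated mice and at 1643 and 1498 CPM in vehicle and 2018 and 1502 CPM in treated mice. The protease Ctsd, by contrast, had 34 UMIs, or 114 and 88.1 CPM in vehicle and 168 and 139 CPM in treated mice, against 726 to 2807 CPM in macrophages. The autophagy cargo receptor Sqstm1 had 26 UMIs. Of 25 genes listed as MEK and ERK output, Fos and Klf2 had the most UMIs. They stood at 871 and 365 CPM in vehicle and 294 and 835 CPM in treated mice and at 71.4 and 403 CPM in vehicle and 504 and 431 CPM in treated mice. Dusp6, Spry2 and Egr1, close readouts of ERK, had 6, 1 and 6 UMIs, too few to show a change. In the cholesterol pathway Fdps stood at 343 and 189 CPM in vehicle and 399 and 319.9 CPM in treated mice and Idi1 at 229 and 189 CPM in vehicle and 168 and 278 CPM in treated mice. Tubb5 and Hmgb2 led the dividing list with 54 and 27 UMIs. Division was rare: Mki67 or Top2a had a UMI in 3 of the 74 barcodes and in 6 of the 19 mixed ones.

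The treatment comparison within pDC asked whether the combination altered these cells within 24 h, and it could use 2 mice against 2. No gene passed. UMIs were summed per mouse over vehicle 2, vehicle 3, treated 2 and treated 3, which had at least 10 selected barcodes, and tested with edgeR's quasi-likelihood test and Benjamini-Hochberg adjustment. With all selected barcodes it called 0 of 2804 genes (0.0%), while 21 (0.749%) had an unadjusted p under 0.05. For DESeq2 these counts were 0 and 65 of 13858. The fits without mixed barcodes, here and below, used a lower minimum of 5 barcodes per mouse. Treated 2 entered them with 7 barcodes, under the minimum of 10. Without mixed barcodes edgeR called 0 of 1206 genes (0.0%), with 61 at an unadjusted p under 0.05 (5.06%) and a lowest adjusted p of 0.381. The precision differed in simulated sums that gave every gene the same spread, the common value fitted to the real sums. With all barcodes, 8-fold changes were recovered for 67% of 200 changed genes (8 false calls) and 4-fold changes for 13.5% (1 false call). Without mixed barcodes, 4-fold changes were recovered for 96%, with 15 false calls. Only genes with ample counts were changed and real genes differ in spread, so recovery in the real sums can be lower. Recovery of smaller changes was not tested. Leaving out 1 mouse gave 43 calls without vehicle 2, 4 without vehicle 3, 29 without treated 2 and 36 without treated 3, each resting on a lone mouse in 1 group that is assumed to vary like the other group. With all barcodes the tumour marker sum was 814 and 5042 CPM in vehicle 2 and 3 and 1270.2 and 68.0 CPM in treated 2 and 3, and its part in those calls was not tested.

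Several pDC genes differed in level without passing the test. With mixed barcodes left out, Ccr2 had a log2 fold change of 1.22 ± 0.30 (SE), Lair1 of 1.00 ± 0.28 (SE), Upb1 of 1.39 ± 0.42 (SE), Spib of 0.99 ± 0.41 (SE) and Mctp2 of 0.87 ± 0.36 (SE), treated over vehicle (edgeR adjusted p = 0.856 for each). On the other side stood Ly6c2 at -0.70 ± 0.26 (SE) and Ly6a, a surface protein that interferon can induce, at -0.81 ± 0.31 (SE), again with edgeR adjusted p = 0.856 for each. For all 7 genes both treated mice lay on the same side of both vehicle mice, as they did for 35.4% of the 1206 genes tested. Of the 22 independent pDC markers, 16 were tested, with a median log2 fold change of 0.24, against −0.01 over all genes. Both treated mice lay above both vehicle mice for 7 of them, Bst2, Cd209d, Spib, Upb1, Lair1, Mctp2 and Blnk, and below for 1, Ly6c2, against 17.4% and 18.0% of all genes. With all barcodes, 1 of the 20 tested, Upb1, lay above and 0 below, against 12.4% and 9.27% of all genes.

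By gene list, with mixed barcodes left out, 0 members of any list were called. The secretory genes had a median log2 fold change of 0.30, with 17 of 22 tested above 0, and 7 of 22 had both treated mice above both vehicle mice (0 below), against 17.4% of all 1206 genes above and 18.0% below. Counted the same way, 7 of 20 surface receptors lay above and 5 (Pirb, Ly6c2, Ly6a, Fcer1g and Csf2rb) below, 5 of 27 lysosome and autophagy genes (Ctsh, Psap, Cd68 and Uvrag among them) above and 7 below, and 4 of 12 dissociation and heat shock genes (Junb, Fosb, Zfp36 and Btg2) above and 3 (Hsp90ab1, Dnaja1 and Hspe1) below. Of 5 migration genes, with a median of 0.50, 3 lay above, Ccr2 among them, and 1, the selecting gene Ccr9, below. Identity factors had 2 of 9 (Spib and Cbfa2t3) above and 0 below, endosomal sensing 2 of 6 (Unc93b1 and Hsp90b1) and 0, interferon response 1 of 4 (Bst2) and 1 (Ifi27l2a), and MHC class I, MHC class II and cholesterol genes 0 either way. MEK and ERK output had 1 of 4 (Klf2) above and 0 below. Endosomal sensing had a median of 0.17 with 6 of 6 above 0, interferon response 0.18 with 3 of 4 (Bst2, Trim30a and Sp100, not Ifi27l2a), MHC class I 0.21 with 5 of 9 (H2-K1, B2m, Tapbp, Psmb9 and H2-T23) and the identity factors 0.12 with 6 of 9. Lysosome and autophagy stood at −0.01 with 13 of 27 above 0, MHC class II at −0.08 with 2 of 6 (H2-Eb1 and H2-DMa), surface receptors at −0.05 with 10 of 20, and cholesterol and fatty acid synthesis at 0.17 with 4 of 7 (Idi1, Fdps, Srebf2 and Scd2). The 1206 genes tested had a median of −0.01, with 591 above 0. Genes linked to dissociation and heat shock had a median of −0.13 with 5 of 12 above 0. Those 5, Junb, Fosb, Nr4a1, Zfp36 and Btg2, are immediate early genes, with log2 fold changes from 1.00 to 1.36. Jun and Jund of the same list did not rise, at −0.18 and −0.08, nor did Fos of the MEK and ERK list, at −0.04. The chaperones Hsp90ab1 and Hspa8 stood at −0.57 and −0.48. The macrophage and monocyte marker sum moved with the groups, at 371 and 315 CPM in vehicle 2 and 3 and 778 and 542 CPM in treated 2 and 3, with Fcgr3 and C1qa, which the selection limits, at 0 in all. Its part in these medians was not tested. With all barcodes the secretory median was 0.14 (19 of 29 above 0) and that of MEK and ERK output −0.68 (3 of 9 above 0, Dusp5, Ccnd1 and Klf2), against 0.11 (2 of 4, Dusp5 and Klf2) without the mixed ones.

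**Figure D4:**
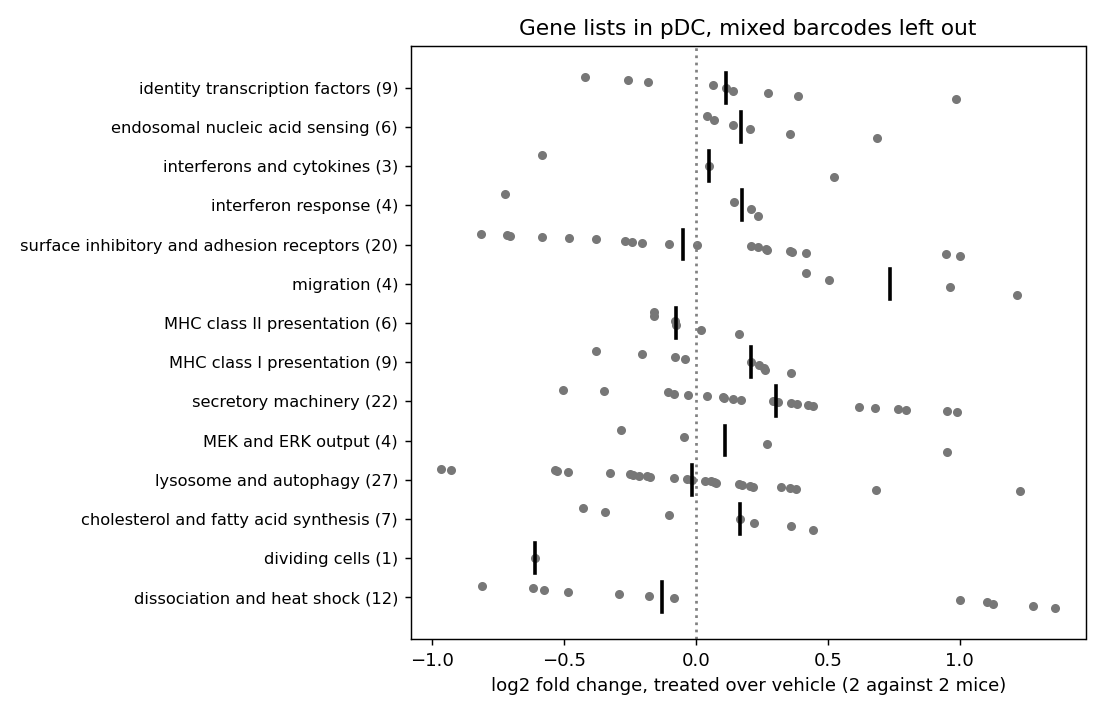
Log2 fold change, treated over vehicle, of each tested gene (grey points) by gene list, from sums of pDC not mixed in 2 treated and 2 vehicle mice, with the list median as a black bar and the number of genes in brackets. Genes used by the selection are not drawn, no gene passed the test, and most medians lie within 0.3 of 0.

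The treatment response of pDC was also set against that of C1q macrophages of the same mice (7233 barcodes with at least 10 UMIs of the 3 C1q genes), by testing the class-by-treatment term with terms for mouse and class. The values of the test in this paragraph come from the fit without mixed barcodes, chosen after seeing the data. With all selected barcodes none of the 4 genes below was called: Plac8 differed by 1.81 ± 0.59 (SE; edgeR adjusted p = 0.349), Ly6a by 1.57 ± 0.68 (SE; edgeR adjusted p = 1), Psap by -1.76 ± 0.53 (SE; edgeR adjusted p = 0.182) and Gm2a by -2.24 ± 0.69 (SE; edgeR adjusted p = 0.22). Plac8 and Ly6a were much lower in macrophages of treated mice, and differed less in pDC. Plac8, a small cysteine-rich protein of myeloid and lymphoid cells, stood at 6287, 3572 and 3059.8 CPM in vehicle 1, 2 and 3 and 4070.2, 3930.1 and 3032 CPM in treated 1, 2 and 3 in pDC, and at 789.8, 369 and 199.6 CPM in vehicle 1, 2 and 3 and 44.8, 42.3 and 81.9 CPM in treated 1, 2 and 3 in macrophages. The pDC values overlapped between groups and the macrophage values did not. The response differed by a log2 fold of 2.08 ± 0.32 (SE) (edgeR adjusted p = 2.84e-07). Ly6a stood at 460.1, 1129 and 932 CPM in vehicle 1, 2 and 3 and 465, 504 and 639.9 CPM in treated 1, 2 and 3 in pDC, and at 205, 235 and 256 CPM in vehicle 1, 2 and 3 and 15.8, 10.6 and 42.1 CPM in treated 1, 2 and 3 in macrophages, a difference in response of 2.39 ± 0.43 (SE) (edgeR adjusted p = 7.4e-05). Psap and Gm2a, both helpers of lipid breakdown in lysosomes, were higher in macrophages of treated mice, and in pDC Psap differed little and Gm2a was lower. Psap stood at 2607, 3143 and 3425 CPM in vehicle 1, 2 and 3 and 1396, 3509.8 and 3811 CPM in treated 1, 2 and 3 in pDC, and at 1719, 1144 and 1343 CPM in vehicle 1, 2 and 3 and 3441, 3678 and 3486 CPM in treated 1, 2 and 3 in macrophages, which differed by -1.54 ± 0.28 (SE) (edgeR adjusted p = 9.57e-05). Gm2a stood at 153, 543 and 441 CPM in vehicle 1, 2 and 3 and 0, 294 and 278 CPM in treated 1, 2 and 3 in pDC, and at 361, 297 and 459 CPM in vehicle 1, 2 and 3 and 579, 677 and 1106 CPM in treated 1, 2 and 3 in macrophages, which differed by -2.20 ± 0.43 (SE) (edgeR adjusted p = 0.0004996). All 63 lysosome and autophagy genes summed to 18072 and 19429 CPM in vehicle 2 and 3 and 20197 and 18569.8 CPM in treated 2 and 3 in pDC and to 16449 and 15255 CPM in vehicle 2 and 3 and 26132 and 25765 CPM in treated 2 and 3 in macrophages. In pDC of the 4 tested mice, treated and vehicle values overlapped for Plac8 and did not for the other 3 genes. All 4 genes were chosen for their result in this test.

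**Figure D5:**
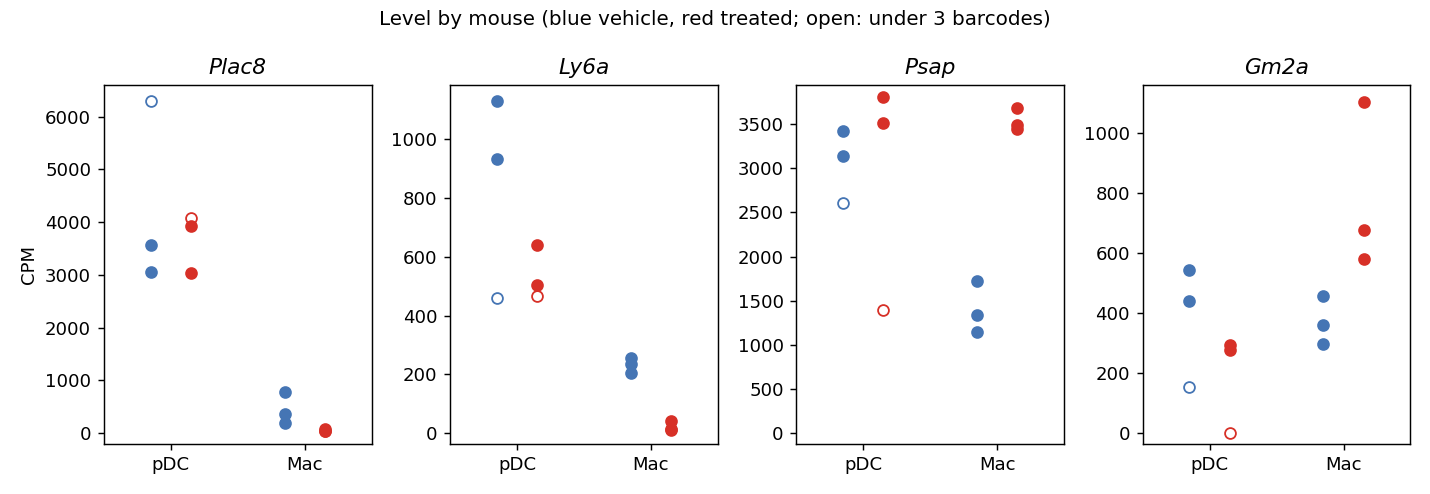
CPM of Plac8, Ly6a, Psap and Gm2a in pDC not mixed and in C1q macrophages (Mac), 1 point per mouse, vehicle blue and treated red, with open points for the mice with 2 and 1 pDC. In macrophages the groups do not overlap for any of the 4 genes, and in pDC they overlap for each of the 4 over all 6 mice.

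In the fit without mixed barcodes 12 of 11796 genes were called (0.102%), 2 with a higher (0.017%) and 10 with a lower (0.0848%) response in pDC. With all selected barcodes 21 of 12581 were called (0.167%), 7 higher (0.0556%) and 14 lower (0.111%), and 1 gene, Saa3, was called both ways. The number of calls with all selected barcodes depended on which mouse was left out, with a lone mouse in 1 group each time. Mixed barcodes held 77.6% of selected UMIs in vehicle 3 and 79.1% in treated 2, and their part in these calls was not tested. Scaling by total counts without TMM gave 14 higher and 11 lower. With mixed barcodes left out, dropping 1 mouse at a time left 11 to 12 calls, but not the same genes each time. The difference in response ranged over these 4 fits from 1.47 to 2.65 for Plac8, called in 3, from 1.72 to 3.23 for Ly6a, called in 2, from -1.75 to -1.41 for Psap, called in 3, and from -2.82 to -1.73 for Gm2a, called in 2. The calls were lost without treated 2 for Plac8 (edgeR adjusted p = 0.451) and Psap (0.414). Against conventional dendritic cells (820 barcodes), edgeR called 0 of 6750 genes (0.0%; 250 at an unadjusted p under 0.05), and 0 of 5583 without mixed barcodes (272 at that level). That class also held neutrophil markers, so the comparison was not with conventional dendritic cells alone. Leaving out 1 mouse there gave 28 calls without vehicle 2, 2 without vehicle 3, 103 without treated 2 and 22 without treated 3.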

How the data were processed

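Cell Ranger 5.0.1 and genome build mm10 are named in the submitters' processing notes, with no annotation release. The files deposited by the authors contain unnormalized UMI counts (32285 features, 44819 barcodes, 22996012 to 126645602 UMIs per library). Barcodes were filtered and selected as described above. Macrophages, conventional dendritic cells and B cells were selected by UMIs of a few listed genes. For conventional dendritic cells these were at least 2 UMIs of Xcr1 and Clec9a, or at least 2 of Cd209a, Clec10a and Ffar2. Counts were summed per mouse and class and tested with edgeR 4.0.16 (TMM, filterByExpr, robust quasi-likelihood fit, two-sided, Benjamini-Hochberg over all genes tested at 0.05) in R 4.3.3, with DESeq2 1.42.0 as an alternative and scripts tested on simulated data. Scrublet (scanpy 1.11.5) scored doublets, and no barcode was removed on its score. Shares used exact permutation over mice. Coordinates of genes are those of GENCODE M21 on mm10, by identifier. Members and gene lists were chosen with earlier results of these data known. The rule named the leading 25 genes by ratio, all pDC markers, the 2 members of each list with the most UMIs where none was called, and genes of counts of 5 or fewer. Genes of the macrophage comparison, Ly6a, Cxcr3, Cxcr4, Ccr7, Cd86, Cd274, Ctsd, Sqstm1, Dusp6, Spry2, Egr1, Id2, Cd4, Cd8a, Xbp1, Ccl3, Ifit1, Ifit3, Isg15, Gzmb, Il12b, Tnf, Gm42418, AY036118 and Unc93b1 were named after their values were seen. Tasl was not matched among the files' symbols. A few items, 1 of the leading 25 among them, are not reported here.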

Additional observations from a re-analysis of the deposited data

Results flagged for a closer look

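Genes whose response to treatment differed between pDC and C1q macrophages numbered 21 with all selected barcodes and 12 with mixed barcodes left out, by edgeR's test of the class-by-treatment term. Of the 12, Cox6a2 was used by the selection and is given no reading. Plac8 (adjusted p = 2.84e-07), Ly6a (7.4e-05), Psap (9.57e-05) and Gm2a (0.0004996) are described in the report with their values in every mouse. These p-values and those that follow are from the fit without mixed barcodes, and of the 11 genes only Saa3 was also called with all selected barcodes.

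The other 7 are best known from macrophages, epithelium, fibroblasts or plasma cells, and all had a lower response in pDC than in macrophages. The response differed by a log2 fold of -4.54 for Spp1, -3.89 for Igkc, -2.34 for Lgals3, -13.1 for Fn1, -4.97 for Saa3, -2.17 for Vim and -2.07 for Clu. Levels in macrophages, the cells of the test, are not given below. Values of all other barcodes, given for Spp1, Igkc and Clu, are not the tested contrast. They were chosen by their result. The secreted phosphoprotein Spp1 (edgeR adjusted p = 4.55e-11) stood at 153, 286 and 944 CPM in vehicle 1, 2 and 3 and 0, 21.02 and 27.8 CPM in treated 1, 2 and 3 in pDC, and at 1411 to 4751 CPM in all other barcodes. The antibody light chain gene Igkc (edgeR adjusted p = 5.24e-05) stood at 307, 457 and 214 CPM in vehicle 1, 2 and 3 and 0, 0 and 111 CPM in treated 1, 2 and 3, and at 8507, 1620.1 and 334 CPM in vehicle 1, 2 and 3 and 589, 401 and 4982 CPM in treated 1, 2 and 3 in all other barcodes. The galectin Lgals3 (edgeR adjusted p = 0.0004996) stood at 153, 671 and 189 CPM in vehicle 1, 2 and 3 and 814, 252 and 55.6 CPM in treated 1, 2 and 3. Fibronectin, Fn1 (edgeR adjusted p = 0.00051), had 13 and 3 UMIs in vehicle 2 and 3 and 0 in the other 4 mice. Saa3 (edgeR adjusted p = 0.000756), an acute phase protein, had 12 UMIs in vehicle 3, 1 in treated 3 and 0 in the other 4. Without 1 of the mice its difference reached 3.29, against -4.97 with all 4. Vimentin, Vim (edgeR adjusted p = 0.00684), stood at 153, 857 and 214 CPM in vehicle 1, 2 and 3 and 349, 147 and 55.6 CPM in treated 1, 2 and 3. Clusterin, Clu (edgeR adjusted p = 0.0179), stood at 0, 900.1 and 201 CPM in vehicle 1, 2 and 3 and 0, 21.02 and 125 CPM in treated 1, 2 and 3, and at 1764, 9531 and 2219.6 CPM in vehicle 1, 2 and 3 and 3876, 2900.1 and 6371 CPM in treated 1, 2 and 3 in all other barcodes. Vehicle 2 or vehicle 3 was the highest of the 4 tested mice for each of these 7. Both had more tumour and fibroblast marker CPM in pDC (tumour 1014 and 289.6 CPM, fibroblast 414 and 214 CPM) than treated 2 and 3 (tumour 84.1 and 83.5 CPM, fibroblast 21.0 and 83.5 CPM), and the part of such RNA in these calls was not tested.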

How the results depend on the processing

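The share of pDC kept its direction in every alternative except 1: leaving out each mouse in turn gave differences from −0.163 to 0.00155 percentage points, the last without vehicle 3, the other selection rules, depths and denominators gave −0.120 to −0.0506 with exact p from 0.4 to 0.8, and the replicate number as a block gave exact p = 0.5. For genes changed in pDC, 0 calls became 43 with no filter on low counts, 1 (the non-coding Gm42418) with barcodes thinned to 2000 UMIs, and 4 to 43 with 1 mouse left out. The replicate block gave 0 calls, with 14 at an unadjusted p under 0.05 and a lowest adjusted p of 0.395. Same-numbered mice did not deviate together (correlation −0.577 over 2804 genes, and −0.111 over 1206 without mixed barcodes), and pairing the numbers the other way round gave 28 calls. DESeq2, a floor of 20 UMIs, no TMM, stricter selection, the mitochondrial limit of 10%, mice with at least 5 barcodes, mixed barcodes left out and all 6 mice gave 0. For the difference from macrophages, 21 calls became 12 with mixed barcodes left out and then 11 to 12 with 1 mouse left out as well. With all barcodes and 1 mouse left out they were 0 to 39. No filter gave 17 and no TMM 25, which moved the median difference over all genes from −0.12 to 0.16. For the difference from conventional dendritic cells, leaving out 1 mouse gave 2 to 103 calls against 0. The cause of these differences was not tested. The share of selected barcodes with a UMI fell with depth: Bst2 was at 97.8% unthinned, 88.3% at 2000 and 77.3% at 1000 UMIs, Ly6c2 at 84.4%, 72.7% and 58.0%, and Irf8 at 94.4%, 81.8% and 72.7%. Not run, because a group kept under 2 mice, were tests of mice with at least 20 barcodes. At the minimum of 10 barcodes this also held without the highest Scrublet scores and without barcodes holding 3 or more UMIs of another type. Fits without mixed barcodes were run at a minimum of 5. The alternatives on mixed barcodes, all 6 mice and crossed numbers were chosen after seeing the data. Sums of 47581 to 79418 UMIs per mouse without mixed barcodes limit all gene results.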

Other observations

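A pair of transcripts stood higher in treated libraries well beyond pDC. Gm42418 and AY036118, non-coding genes that overlap ribosomal RNA repeats, were higher in pDC of treated 2 and 3 than of vehicle 2 and 3. Gm42418 (ENSMUSG00000098178, chromosome 17, 39846958 to 39848788) stood at 460.1, 8315 and 20172 CPM in vehicle 1, 2 and 3 and 13141, 48023 and 49867 CPM in treated 1, 2 and 3 in pDC, and at 255, 4368 and 6409.9 CPM in vehicle 1, 2 and 3 and 30207, 43619 and 30189 CPM in treated 1, 2 and 3 in all other barcodes. AY036118 (ENSMUSG00000105361, chromosome 17, 39847113 to 39848035) stood at 0, 457 and 718 CPM in vehicle 1, 2 and 3 and 930.3, 2102 and 1975 CPM in treated 1, 2 and 3 in pDC, and at 44.1, 89.8 and 91.7 CPM in vehicle 1, 2 and 3 and 378, 377 and 401 CPM in treated 1, 2 and 3 in all other barcodes. Their log2 fold changes in pDC were 1.80 ± 0.40 (SE) and 1.80 ± 0.30 (SE) (edgeR adjusted p = 0.811 and 0.381).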
